A study of Homo sapiens with 18 samples.

Results

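In THP-1 cells of the line ERPHF8, interferon-stimulated genes stood above their levels in the line ERAA on day 3, together with genes of DNA replication, mitosis, ribosome assembly and sterol synthesis. Genes of amino acid supply, MHC class II presentation and the monocyte surface stood below. By mean level, cell cycle genes were lower in ERAA than in every other line of the series. The comparison of ERPHF8 with ERAA uses 4 of the 18 samples of the series. These are ERPHF8 libraries 1 and 2 and ERAA libraries 1 and 2, picked by their titles and genotype labels. THP-1 is a human monocytic leukaemia line with the MLL-AF9 fusion, which all lines of the series carry, and poly(A) RNA was sequenced from each library. ERPHF8 cells carry the form labelled PHF8, and their labels name no treatment. ERAA cells carry the form labelled PHF8AA, with 4-hydroxytamoxifen (4-OHT) named as treatment, which the protocol gives at 100 nM. The form of PHF8 and the drug therefore differ together between ERPHF8 and ERAA and cannot be told apart. Another line of the same experiment, ERDD (2 libraries), carries the form labelled PHF8DD and has the 4-OHT label. The letters ER, AA and DD are not spelled out, and the labels do not say whether a line is a clone. Nothing states that replicates came from separate cultures, so p-values measure the spread between these samples, which may be technical. A separate experiment of the series, with other libraries, compared lines named PHF8 and F279S, after the form they carry, with wt cells (n = 4 each).

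PHF8 is a histone demethylase that reads methylated lysine near gene starts through a PHD finger and removes methyl groups from other histone lysines through a JmjC domain. The oestrogen receptor ligand-binding domain, which ESR1 encodes, is often fused to proteins so that 4-OHT releases them into the nucleus. Type I interferons signal through a receptor that activates STAT2 and its partners, which join IRF9 and bind interferon-stimulated response elements (ISREs) in the promoters of antiviral genes. Interferon of this type is known to slow the growth of many leukaemia cells.

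Levels are given as CPM, the reads over a gene's whole span per 1e6 reads of the library. Differences are log2(CPM + 0.5) in ERPHF8 minus ERAA, with the standard error (SE) of the limma model, and a gene was called where its Benjamini-Hochberg adjusted p was below 0.05. Library totals were 40.6 to 40.8 M reads in ERPHF8 and 40.7 to 41.0 M in ERAA. The ERPHF8 libraries stood closer together than the ERAA libraries: the median gap between libraries of a line, over genes of at least 5 CPM, was 0.046 in ERPHF8 and 0.10 in ERAA (log2). In the 1384 longest genes tested, with spans of 165 kb or more, ERPHF8 2 stood above ERPHF8 1 by a median of 0.10, and ERAA 2 differed from ERAA 1 by a median of -0.16 (log2). Over these long genes ERPHF8 minus ERAA had a median of 0.15, near the gap between the ERAA libraries, against 0.04 over all genes tested. The monocytic markers of the line (CD14, LYZ, CD33, CSF1R, ITGAM, ITGB2, FCGR1A, SPI1, TYROBP and CD4) were detected in every library. Of 13831 genes tested, 4103 (29.7%) were higher in ERPHF8 and 3333 (24.1%) lower, 53.8% in all. Most differences were small: the median size among called genes was 0.35 (log2), and 85 genes (0.615%) were at least 2-fold higher and 111 (0.803%) at least 2-fold lower. Without ERPHF8 2 the called genes came to 4863, and without ERAA 1 those at least 2-fold higher came to 137. Transcript GC content had a median of 46.6% among genes higher in ERPHF8, 56.4% among lower ones and 49.4% among the rest. Gene spans had medians of 45.1 kb among higher, 20.6 kb among lower and 34.4 kb among other genes. After GC content and span were taken out of each library, an alternative chosen after the values were seen, 55 interferon-stimulated, 37 cell cycle and 22 sterol genes of the lists below were higher, and 13 MHC class II, 34 monocyte and 18 amino acid supply genes lower.

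PHF8 RNA (chromosome X, 53936676 to 54048958, hg38) was abundant in both lines. It stood at 1900 and 1912 CPM in ERPHF8 and at 2305 and 1996 CPM in ERAA, a difference of -0.17 ± 0.07 (SE; 95% interval -0.33 to -0.015, adjusted p = 0.0625, limma), which did not pass the threshold. Both ERPHF8 libraries lay below both ERAA libraries, and the gap between the ERAA libraries was larger than that from ERAA 2 to ERPHF8. Without ERAA 1 the difference was -0.07, and without ERAA 2 it was -0.27, both past the threshold, since the spread of ERAA then left the fit. ESR1 read 229 and 230 CPM in ERPHF8 and 275 and 247 CPM in ERAA (-0.18 ± 0.05, adjusted p = 0.0227, limma). That call was lost when the 4 libraries were fitted alone. The span of ESR1 overlaps SYNE1, so some of its reads are uncertain. Over the same span, overlap included, ESR1 read at most 1.35 CPM in any library of the separate experiment, whose line names lack ER. ESR1 over PHF8 gave 0.120 to 0.121 in ERPHF8, against 0.119 to 0.124 in ERAA. PHF8 read 50.6 ± 3.99 CPM in wt of the separate experiment (SD, n = 4), far below its level in ERPHF8 and ERAA. Within a library the counts do not separate added PHF8 from the cell's own.

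The interferon-stimulated genes were the most raised of the gene lists. Of 58 members tested, 54 were higher in ERPHF8, 28 of them at least 2-fold, and 1 was lower. Among all genes 29.7% were higher, 0.615% at least 2-fold higher, and 24.1% lower. The 54 include CXCL10, which lay below the level of the filter in both lines. The list's median difference was 0.97, against 0.04 over all genes tested. Because the libraries are bulk RNA, fewer responding cells and less RNA per cell cannot be told apart, here or in the results that follow. ISREs have a core of 2 GAAA blocks with any 2 bases between them, and the promoters of these genes are shown to let its place be read beside the expression values. RefSeq promoter windows (GRCh38.p14, 250 bases before to 50 after each start, several for some genes) were searched for that core on both strands. A match stood in at least 1 window of 32 of the 48 interferon-stimulated genes with a window (66.7%). Among all tested genes with a window the share was 4.18%, and over all windows 3.57%. Of the genes at least 2-fold higher in ERPHF8, 22 of 62 had a match, and of those at least 2-fold lower 2 of 85. The 200 bases before the start are printed 5′ to 3′ for 6 strongly raised genes, with matches in capitals. All 6 hold a match, which not every strongly raised gene did. CMPK2 held none in its 3 windows, and the only match shown by MX1 in these 200 bases began 196 bases before the start. A match describes these letters and does not show a bound site.
IFI44L (chr1:78620248-78620447, plus strand): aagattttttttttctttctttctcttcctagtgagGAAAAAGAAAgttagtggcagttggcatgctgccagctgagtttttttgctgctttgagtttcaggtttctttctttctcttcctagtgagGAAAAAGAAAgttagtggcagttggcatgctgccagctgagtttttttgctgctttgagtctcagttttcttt
IFI27 (chr14:94110536-94110735, plus strand): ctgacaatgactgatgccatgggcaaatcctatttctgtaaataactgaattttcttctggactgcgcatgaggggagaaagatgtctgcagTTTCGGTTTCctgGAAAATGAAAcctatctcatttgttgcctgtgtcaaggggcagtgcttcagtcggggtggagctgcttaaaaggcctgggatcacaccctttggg
IFI44 (chr1:78649589-78649788, plus strand): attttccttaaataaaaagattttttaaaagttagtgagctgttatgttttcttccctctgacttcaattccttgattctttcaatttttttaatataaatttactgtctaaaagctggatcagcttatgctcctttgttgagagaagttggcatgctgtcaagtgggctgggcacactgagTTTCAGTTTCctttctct
OAS3 (chr12:112938274-112938473, plus strand): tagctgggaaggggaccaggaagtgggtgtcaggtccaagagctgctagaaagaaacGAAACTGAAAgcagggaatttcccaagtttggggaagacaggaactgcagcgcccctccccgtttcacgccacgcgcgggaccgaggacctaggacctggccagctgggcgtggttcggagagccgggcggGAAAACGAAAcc
EPSTI1 (chr13:42992242-42992441, minus strand): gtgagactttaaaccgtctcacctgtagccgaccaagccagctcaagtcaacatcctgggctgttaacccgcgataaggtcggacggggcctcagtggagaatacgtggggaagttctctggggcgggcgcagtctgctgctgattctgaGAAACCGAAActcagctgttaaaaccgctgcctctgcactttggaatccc
IFIT1 (chr10:89392423-89392622, plus strand): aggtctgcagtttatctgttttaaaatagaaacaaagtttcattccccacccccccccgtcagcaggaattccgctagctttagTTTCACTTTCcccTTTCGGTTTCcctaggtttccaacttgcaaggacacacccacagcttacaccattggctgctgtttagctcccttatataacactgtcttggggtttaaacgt

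In the IFI27 window a pair of matches begin 108 and 95 bases before the start, and in IFIT1 they begin 116 and 103 bases before it. In OAS3 the nearer match begins 12 bases before the start, and in IFI44 the only one begins 18 bases before it. The window of MAF, a transcription factor gene lower in ERPHF8, is shown for comparison and held no match.
MAF (chr16:79600738-79600937, minus strand): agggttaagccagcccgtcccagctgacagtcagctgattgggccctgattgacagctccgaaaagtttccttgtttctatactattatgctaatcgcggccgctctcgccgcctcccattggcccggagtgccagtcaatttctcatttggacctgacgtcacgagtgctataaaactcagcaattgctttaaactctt

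IFI44L (chromosome 1, 78619922 to 78646145), a cytosolic interferon-induced protein, had the largest rise of any named gene. It stood at 31.8 and 30.8 CPM in ERPHF8, against 2.29 and 2.63 CPM in ERAA, 12.7-fold on the means (3.43 ± 0.07 log2, adjusted p = 1.36e-07, limma). Its neighbour IFI44 read 23.8 and 23.1 CPM in ERPHF8, against 3.81 and 4.05 CPM in ERAA, 5.97-fold higher (2.44 ± 0.06). In both genes the 2 libraries of a line were close to each other and far from those of the other line.

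IFI27, a mitochondrial and nuclear envelope protein much used as a marker of the interferon response, read 11.9 and 13.2 CPM in ERPHF8, against 1.28 and 1.54 CPM in ERAA (2.77 ± 0.09). MX1 (chromosome 21, 41420304 to 41459214), a dynamin-like GTPase that blocks viral replication, read 106 and 107 CPM in ERPHF8 and 17.6 and 17.5 CPM in ERAA. That was 6.06-fold higher, with the smallest p of the list (2.57 ± 0.04, adjusted p = 4.62e-08, limma).

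The oligoadenylate synthetases sense double-stranded RNA and activate RNase L. OAS3 read 179 and 179 CPM in ERPHF8, against 44.6 and 38.6 CPM in ERAA (2.09 ± 0.06). OAS2 read 145 and 142 CPM in ERPHF8 and 35.3 and 35.2 CPM in ERAA (2.01 ± 0.04). OAS1 and OASL were higher by 1.10 and 1.25.

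EPSTI1, an interferon-induced gene of epithelial and immune cells, read 32.2 and 32.0 CPM in ERPHF8, against 8.60 and 8.29 CPM in ERAA (1.87 ± 0.05). CMPK2, a mitochondrial nucleotide kinase, read 45.5 and 43.3 CPM in ERPHF8 and 13.3 and 13.1 CPM in ERAA (1.71 ± 0.05), with reads shared with its neighbour RSAD2. ISG15, the ubiquitin-like modifier, read 36.1 and 37.5 CPM in ERPHF8, against 10.4 and 11.9 CPM in ERAA (1.68 ± 0.07). The lines did not overlap for EPSTI1, CMPK2 and ISG15, which the rule for the largest rises required of EPSTI1. How often lines do not overlap among all tested genes is not given here.

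Other members rose by less. IFIT3 (1.53), IFI6 (1.57), USP18 (1.28), which removes ISG15 from proteins, and EIF2AK2 (1.13), the kinase PKR, were more than 2-fold higher. The RNA sensors IFIH1 and DDX58 rose by 0.66 each, ADAR, an RNA editing enzyme, by 0.57, and UBE2L6, the ISG15 conjugating enzyme, by 0.28. SAMHD1, a nucleotide hydrolase that limits retroviruses, was the member called lower, at 708 and 712 CPM in ERPHF8 and 895 and 852 CPM in ERAA (-0.30 ± 0.04), with reads shared with TLDC2. RTP4 (0.23), GBP2 (0.15) and SP100 (0.09) were not called. CXCL10, at 0.197 and 0.662 CPM in ERPHF8 and 0.074 and 0 CPM in ERAA, lay below the level of the filter in both lines and was kept by other libraries of the fit. ZBP1 was too low to test.

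**Figure D1:**
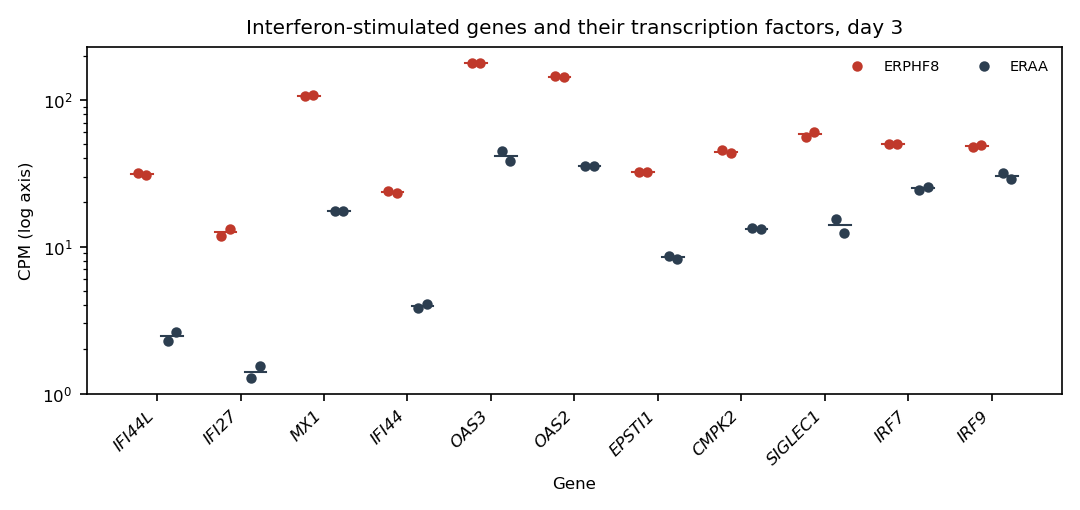
CPM (log axis) of 9 interferon-stimulated genes, SIGLEC1 among them, and of the transcription factor genes IRF7 and IRF9 in ERPHF8 and ERAA on day 3; points are libraries (n = 2 per line) and bars their means. In each gene both ERPHF8 points lie above both ERAA points, with the widest gap in IFI44L (31.8 and 30.8 against 2.29 and 2.63 CPM). The genes were picked by size of change or smallest p, so such a gap is partly built in.

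SIGLEC1, the sialic acid lectin CD169 that interferon induces on monocytes, read 56.1 and 60.2 CPM in ERPHF8, against 15.6 and 12.4 CPM in ERAA (2.03 ± 0.09). It stood on the monocyte list, most of whose called members went the other way. OTOF, known for vesicle release in hair cells, read 5.49 and 5.84 CPM in ERPHF8 and 1.16 and 0.731 CPM in ERAA (2.11 ± 0.14). MOXD1, a copper-dependent monooxygenase homologue, read 10.5 and 10.1 CPM in ERPHF8 and 2.48 and 2.36 CPM in ERAA (1.88 ± 0.08). Their windows held no ISRE core. IFIT1 and TRIM22 completed the 12 largest rises (1.87 ± 0.08 and 1.72 ± 0.07), with reads shared with LIPA in the case of IFIT1 and with TRIM5 and OR56B1 in the case of TRIM22.

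The interferon genes themselves were close to silent. Over 21 genes for type I, II and III interferons, 12 reads in all were counted in ERPHF8 and 12 in ERAA, and 16 of the genes had 0 reads in all 4 libraries. In a library 0 reads still allow 0.0727 to 0.0738 CPM, counting error only, so differences below that were not detectable at this depth.

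Of 29 sensing and signalling genes, 12 were higher and 9 lower, with a median of 0.03, where 29.7% of all genes were called higher and 24.1% lower. Among the 8 not called were IRF1, IRF2, IRF8, IFNAR2, IFNGR2 and SOCS1. IRF7, which drives transcription of interferon genes, read 49.8 and 49.8 CPM in ERPHF8, against 24.4 and 25.6 CPM in ERAA (0.98 ± 0.05). IRF9, the DNA-binding partner of STAT2, read 47.7 and 49.2 CPM in ERPHF8 and 31.6 and 28.7 CPM in ERAA (0.68 ± 0.06). Its span overlaps another gene, so its reads are uncertain, and STAT2 itself differed by 0.19.

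MB21D1, the DNA sensor cGAS, was higher by 0.56 ± 0.05, and the kinase TBK1 by 0.37. The receptor chain IFNAR1 read 92.8 and 91.4 CPM in ERPHF8 and 111 and 106 CPM in ERAA (-0.24 ± 0.04). The kinases TYK2 and JAK1 were at -0.25 and -0.18, and the adaptor STING, listed as TMEM173, at -0.24. IRF5 read 110 CPM in both ERPHF8 libraries and 142 and 147 CPM in ERAA (-0.40 ± 0.04).

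Other libraries of the series place these levels. The mean of log2(CPM + 0.5) over 56 interferon-stimulated genes was 5.72 and 5.72 in ERPHF8, 7.02 and 7.02 in ERDD, and 4.66 and 4.64 in ERAA. In the separate experiment it was 4.14 to 4.21 in the PHF8 line, 3.80 to 4.14 in F279S and 3.61 to 3.74 in wt. ERPHF8 thus lay between ERDD and ERAA, and all 6 libraries of the ER lines lay above all 12 of the separate experiment. IFI44L read 31.8 and 30.8 CPM in ERPHF8, 175 and 171 CPM in ERDD, and 2.29 and 2.63 CPM in ERAA, beside 0.465 ± 0.161 CPM in wt (SD, n = 4). MX1 read 106 and 107 CPM in ERPHF8, 457 and 462 CPM in ERDD, and 17.6 and 17.5 CPM in ERAA. The ERDD comparisons use the same ERPHF8 or ERAA libraries and are given as levels only.

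**Figure D2:**
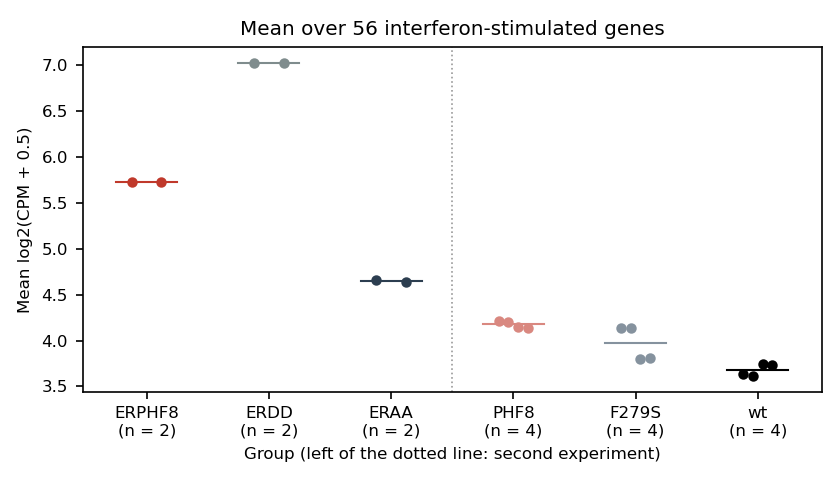
Mean of log2(CPM + 0.5) over 56 interferon-stimulated genes in each library, by line; points are libraries and bars the mean of the line. ERPHF8 (5.72) lies between ERDD (7.02) and ERAA (4.64 to 4.66), and the separate experiment, right of the dotted line, lies between 3.61 and 4.21.

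The separate experiment shares no library with ERPHF8 or ERAA, and its contrast of PHF8 with wt has no drug label. There 27 of 56 interferon-stimulated genes were higher and 1 lower (median 0.37), where 12.7% of 13683 genes were called higher and 8.28% lower. The library pairs 1 and 2, and 3 and 4, stood apart in that experiment, and within them the median of the list was 0.43 and 0.40. With the pair as a term 34 members were higher and 3 lower, where 22.4% of all genes were higher. Without the pair term, OAS3 in PHF8 against wt was higher by 1.16 ± 0.21 and EPSTI1 by 1.12 ± 0.31. IFI44L (0.81 ± 0.23), IFI27 (0.74 ± 0.19), OAS2 (0.84 ± 0.27) and IFIT1 (1.05 ± 0.28) were also called higher. MX1 (0.86 ± 0.36), IFI44 (0.61 ± 0.25) and TRIM22 (0.45 ± 0.36) were not called. In PHF8 against F279S, OAS3 (0.55 ± 0.21) and EPSTI1 (0.47 ± 0.31) were not called, while IFI27 (0.60 ± 0.19) and CMPK2 (0.74 ± 0.21) were called higher.

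Over all 13504 genes tested in both experiments, 578 were higher in ERPHF8 against ERAA and in PHF8 against wt. These were 14.3% of the genes higher in ERPHF8, where 12.8% of the 13504 were higher in PHF8, and 33.4% of those higher in PHF8, where 29.9% were higher in ERPHF8. A further 457 were lower in both, 14.0% of those lower in ERPHF8, where 8.24% of the 13504 were lower in PHF8, and 41.1% of those lower in PHF8, where 24.2% were lower in ERPHF8. The 1035 genes called in the same direction became 1949 with the library pair as a term in the separate experiment, and 683 without genes that overlap another gene. Opposite calls were made for 209 genes higher in ERPHF8 and lower in PHF8, and for 361 genes lower in ERPHF8 and higher in PHF8. Of the genes at least 2-fold higher in ERPHF8, 76 were tested in both, and 27 of these were higher and 3 lower in PHF8 against wt. Of those at least 2-fold lower, 102 were tested in both, and 15 were higher and 17 lower. In PHF8 against wt, amino acid supply genes had 6 higher and 1 lower of 26, and 14 higher and 4 lower with the pair term. MHC class II genes had 7 higher and 1 lower of 13 there, and 8 higher and 1 lower with the pair term. Of all genes, 12.7% were called higher and 8.28% lower there, and 22.4% and 18.5% with the pair term.

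Genes of the cell cycle were higher almost throughout. Of 40 members, 36 were higher and 3 lower, with a median of 0.62, where 29.7% of all genes were called higher and 24.1% lower. The mean log2 level over the 40 genes was 6.98 and 6.97 in ERPHF8, 7.12 and 7.12 in ERDD, and 6.41 and 6.43 in ERAA. In the separate experiment it was 6.99 to 7.12 in PHF8, 6.95 to 7.16 in F279S and 6.86 to 7.08 in wt. ERAA thus lay below every other line, and ERPHF8 within the range of wt. PHF8 against wt had 4 of the 40 higher and 3 lower, and 12 and 4 with the pair term. The MCM proteins form the replicative helicase. MCM4 read 500 and 495 CPM in ERPHF8, against 248 and 243 CPM in ERAA, 2.02-fold higher (1.02 ± 0.04, adjusted p = 3.63e-06, limma). MCM3 read 582 and 579 CPM in ERPHF8 and 317 and 308 CPM in ERAA (0.89 ± 0.04). MCM7 was at 454 and 447 CPM in ERPHF8 and at 252 and 262 CPM in ERAA (0.81 ± 0.04), sharing reads with AP4M1. Libraries of a line differed by a few percent, far less than the lines did.

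Genes of mitosis moved with those of replication. The checkpoint kinase gene BUB1 read 167 and 169 CPM in ERPHF8, against 93.7 and 90.2 CPM in ERAA (0.87 ± 0.04). KIF20A, a kinesin of cytokinesis, read 84.5 and 87.9 CPM in ERPHF8 and 48.8 and 48.7 CPM in ERAA (0.82 ± 0.04), with reads shared with its neighbours BRD8 and CDC23. MKI67, the proliferation antigen Ki-67, had the largest difference of the list (1.10 ± 0.12), at 624 and 712 CPM in ERPHF8 and 360 and 270 CPM in ERAA, with a wider spread in each line. The D cyclins CCND2 (-0.76), CCND1 (-0.62) and CCND3 (-0.18) were the members called lower, and CDT1, a licensing factor, was not called (-0.11). Bulk RNA does not count cells in each phase. E2F factors bind TTTCCCGC, and this motif, chosen after the values were seen, stood in a window of 6 of 31 cell cycle genes (19.4%) and of 3.2% of tested genes with a window. The bases before the start of MCM3 are shown as 1 of them, with the match in capitals.
MCM3 (chr6:52284743-52284942, minus strand): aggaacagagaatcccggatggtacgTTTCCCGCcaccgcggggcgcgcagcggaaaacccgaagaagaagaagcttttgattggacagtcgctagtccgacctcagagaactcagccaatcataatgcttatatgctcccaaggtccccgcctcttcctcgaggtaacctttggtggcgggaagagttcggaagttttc

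Ribosome biogenesis genes rose by less. Of 24 MYC targets and ribosome assembly factors 19 were higher and 0 lower (median 0.37), against 29.7% and 24.1% of all genes. NCL, nucleolin, read 1335 and 1332 CPM in ERPHF8, against 948 and 955 CPM in ERAA (0.49 ± 0.04). NOLC1, a nucleolar chaperone, read 209 and 209 CPM in ERPHF8 and 150 and 150 CPM in ERAA (0.48 ± 0.04). MYC itself, on the self-renewal list, was lower, at 287 and 280 CPM in ERPHF8 and 349 and 364 CPM in ERAA (-0.33 ± 0.04).

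Of the chaperone and immediate early genes, 10 of 20 were higher and 7 lower (median 0.22), against 29.7% and 24.1% of all genes. The cytosolic chaperone HSPA8 had the largest rise in CPM of any called gene, at 2131 and 2094 CPM in ERPHF8, against 1145 and 1198 CPM in ERAA (0.85 ± 0.05). HSPH1, its exchange factor, read 403 and 402 CPM in ERPHF8 and 232 and 215 CPM in ERAA (0.85 ± 0.05), and HSP90AA1 was higher by 0.84 ± 0.04, with reads shared with WDR20. CALR, a chaperone of the endoplasmic reticulum that loads MHC class I, read 1418 and 1423 CPM in ERPHF8 and 773 and 852 CPM in ERAA (0.81 ± 0.05). JUN, an immediate early factor, was lower, at 32.1 and 30.6 CPM in ERPHF8 and 61.9 and 61.5 CPM in ERAA (-0.96 ± 0.06). PRKDC, the DNA repair kinase subunit, was among the largest rises in CPM but differed between replicates, at 798 and 1015 CPM in ERPHF8 and 486 and 304 CPM in ERAA (1.23 ± 0.19).

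Sterol and fatty acid synthesis genes were higher in 25 of 31 and lower in 4 (median 0.42), against 29.7% and 24.1% of all genes. The desaturase FADS2 read 726 and 715 CPM in ERPHF8, against 387 and 404 CPM in ERAA (0.86 ± 0.04), and FADS1 beside it 0.79 ± 0.04. Their spans overlap, so the pair is uncertain. IDI1, an isomerase of the mevalonate pathway, read 153 and 157 CPM in ERPHF8 and 87.1 and 87.9 CPM in ERAA (0.82 ± 0.04). SQLE of cholesterol synthesis was higher by 0.70 ± 0.04. The 4 lower members were the cholesterol exporters ABCG1 (-1.59 ± 0.19) and ABCA1 (-0.45 ± 0.09), MYLIP (-0.22), which degrades the LDL receptor, and SREBF1 (-0.12). All 4 are known targets of the oxysterol receptor LXR. ABCG1 read 1.21 and 1.64 CPM in ERPHF8 and 5.11 and 5.39 CPM in ERAA.

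**Figure D3:**
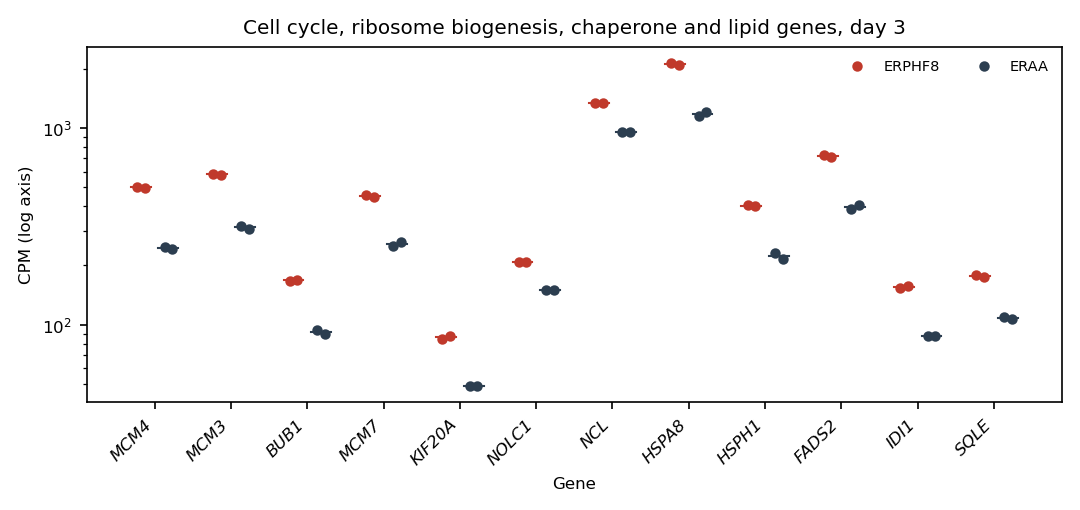
CPM (log axis) of cell cycle (MCM4, MCM3, BUB1, MCM7, KIF20A), ribosome biogenesis (NOLC1, NCL), chaperone (HSPA8, HSPH1) and lipid synthesis genes (FADS2, IDI1, SQLE) in ERPHF8 and ERAA on day 3; points are libraries (n = 2 per line) and bars their means. Both ERPHF8 points lie above both ERAA points in each gene, by 0.48 (NOLC1) to 1.02 (MCM4) on the log2 scale. The genes were picked by size of change or smallest p, so such a gap is partly built in.

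Amino acid supply genes of the integrated stress response were the most lowered of the metabolic lists. Of 26 members, 20 were lower and 2 higher, with a median of -0.45, where 24.1% of all genes were called lower and 29.7% higher. The mean of log2(CPM + 0.5) over the 26 genes was 6.98 and 6.99 in ERPHF8, 6.06 and 6.05 in ERDD, and 7.45 and 7.47 in ERAA. In the separate experiment it was 5.73 to 5.92 in PHF8, 5.41 to 5.67 in F279S and 5.38 to 5.61 in wt. ERPHF8 thus lay below ERAA and above every other line. ASS1, argininosuccinate synthase of arginine synthesis (chromosome 9, 130444929 to 130501274), had the largest fall of any named gene on the log2(CPM + 0.5) scale. It stood at 123 and 130 CPM in ERPHF8, against 445 and 500 CPM in ERAA, 3.75-fold higher in ERAA (-1.9 ± 0.06, adjusted p = 2.26e-06, limma). ASNS, asparagine synthetase, read 110 and 106 CPM in ERPHF8 and 247 and 251 CPM in ERAA (-1.20 ± 0.04). PHGDH, the first enzyme of serine synthesis, read 582 and 576 CPM in ERPHF8 and 1112 and 1187 CPM in ERAA (-0.99 ± 0.04).

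PSAT1, the next enzyme of that pathway, was at 357 and 351 CPM in ERPHF8 and at 598 and 601 CPM in ERAA (-0.76 ± 0.04). WARS, the tryptophan tRNA synthetase that interferon gamma also induces, read 153 and 157 CPM in ERPHF8, against 330 and 325 CPM in ERAA (-1.08 ± 0.04), sharing reads with WDR25. ATF4, the transcription factor of this response, read 483 and 478 CPM in ERPHF8 and 698 and 824 CPM in ERAA (-0.66 ± 0.07). DDIT3, the stress factor CHOP, was not called (0.04), and ATF3 (0.42 ± 0.08) and the cystine transporter SLC7A11 (0.52 ± 0.12) were higher. In the separate experiment PHGDH and ASNS were higher in PHF8 than in wt (1.07 ± 0.08 and 0.98 ± 0.17), and ASS1 differed by -0.23 ± 0.20 (adjusted p = 0.49, limma). The core of the amino acid response element, TGATGNAA, was searched after the values were seen. It stood in a window of 8 of 20 genes of the list (40%) and of 2.85% of tested genes with a window. The windows of ASS1, WARS, PHGDH and PSAT1 held no match. A match stood in 6 of 85 genes at least 2-fold lower in ERPHF8 (7.06%) and in 4 of 62 at least 2-fold higher (6.45%). The ASNS promoter carries such an element, and its 200 bases before the start are shown with the match in capitals.
ASNS (chr7:97872409-97872608, minus strand): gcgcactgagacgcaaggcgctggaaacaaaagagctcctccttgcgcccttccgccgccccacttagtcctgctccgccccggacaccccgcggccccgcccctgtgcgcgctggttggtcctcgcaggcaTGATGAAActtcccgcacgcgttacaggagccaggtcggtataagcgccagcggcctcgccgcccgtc

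Another motif chosen in the same way, the sterol regulatory element as TCACNCCAC, stood in 1 of 24 sterol and fatty acid genes with a window, against 1.54% of tested genes. RefSeq windows matched 11070 of the 13831 tested genes, OAS2, SIGLEC1 and TRIM22 not among them.

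MHC class II presentation genes were called lower in 13 of 13 tested, with a median of -0.66, where 24.1% of all genes were called lower. Their range was -0.88 (HLA-DQA1) to -0.24 (CIITA, the master transactivator of the class). CD74, the invariant chain, read 318 and 319 CPM in ERPHF8, against 543 and 602 CPM in ERAA, 1.80-fold higher in ERAA (-0.84 ± 0.05). HLA-DRA read 65.6 and 65.0 CPM in ERPHF8 and 101 and 107 CPM in ERAA (-0.67 ± 0.05). HLA-DRB1 (-0.66 ± 0.06) and HLA-DRB5 (-0.66 ± 0.06) have near-identical sequence and are uncertain as separate genes. The spans of 6 members overlap another gene, and without such genes all 7 members left were called lower.

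MHC class I genes, though known interferon targets, did not follow the interferon-stimulated list. Of 19 members 6 were higher (31.6%) and 5 lower (26.3%, median -0.02), near the 29.7% and 24.1% of all genes. Heavy chain genes and TAP1 were the lower ones. HLA-E read 190 and 189 CPM in ERPHF8 and 301 and 325 CPM in ERAA (-0.72 ± 0.05), and HLA-B 745 and 741 CPM in ERPHF8 and 1026 and 1167 CPM in ERAA (-0.56 ± 0.06). HLA-C was lower too (-0.48 ± 0.06), and it and HLA-B are alike enough to share reads. The peptide transporter subunit TAP1 was at -0.13, and B2M, the light chain, was not called (-0.10). CALR, ERAP2 (0.43), PSME2 (0.42), NLRC5 (0.37), PSMB10 (0.21) and PDIA3 (0.16) were higher.

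Of 50 monocyte and macrophage genes tested, 33 were lower and 4 higher (median -0.31), against 24.1% and 29.7% of all genes. FCER1G, the signalling chain of Fc receptors (chromosome 1, 161215234 to 161220699), read 450 and 436 CPM in ERPHF8, against 1001 and 1134 CPM in ERAA (-1.26 ± 0.06). ITGB2, the beta chain of the leukocyte integrins, read 1173 and 1167 CPM in ERPHF8 and 1993 and 2054 CPM in ERAA (-0.79 ± 0.04). CD4 read 238 and 241 CPM in ERPHF8 and 364 and 378 CPM in ERAA (-0.63 ± 0.04), and the lipoprotein APOE 9.99 and 10.0 CPM in ERPHF8 and 23.8 and 25.7 CPM in ERAA (-1.27 ± 0.07). The calprotectin genes S100A8 and S100A9 were at -0.60 and -0.77, and the factors CEBPB, CEBPA and SPI1 at -0.64, -0.52 and -0.36. LYZ, lysozyme, was not called (-0.03), nor were CD163 (0.10) and CD36 (0.11). Besides SIGLEC1, MMP9 (0.57), SERPINB2 (0.60) and CTSL (0.17) were the members called higher, and SERPINB2 shares reads with SERPINB10. The monocyte genes had medians of 54.9% for transcript GC content and 12.3 kb for span, on the side of the genes called lower. With GC content and span taken out of each library, 34 were lower.

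**Figure D4:**
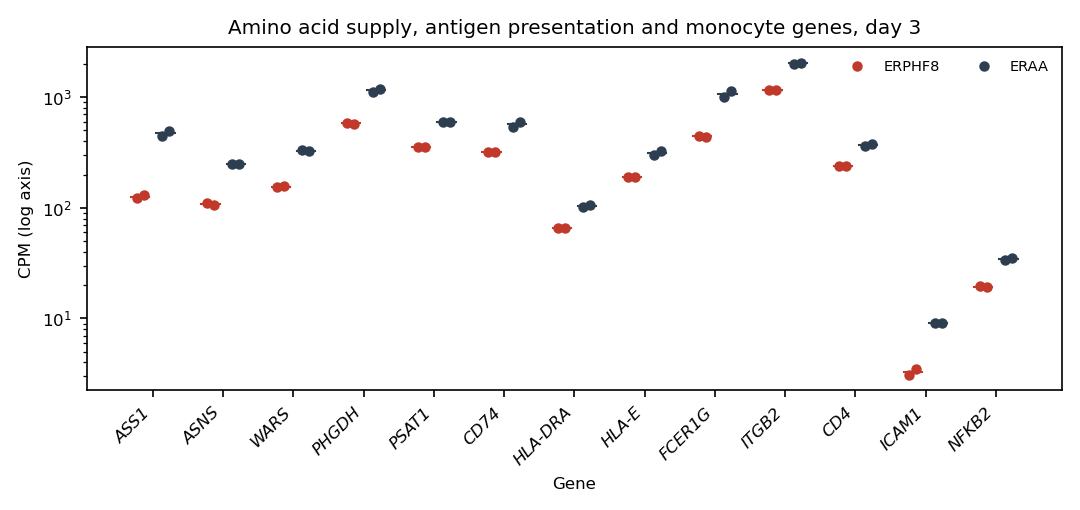
CPM (log axis) of amino acid supply genes (ASS1, ASNS, WARS, PHGDH, PSAT1), antigen presentation genes (CD74, HLA-DRA, HLA-E), monocyte genes (FCER1G, ITGB2, CD4) and NF-kB-linked genes (ICAM1, NFKB2) in ERPHF8 and ERAA on day 3; points are libraries (n = 2 per line) and bars their means. Both ERPHF8 points lie below both ERAA points in each gene, by 0.63 (CD4) to 1.9 (ASS1) on the log2 scale. The genes were picked by size of change or smallest p, so such a gap is partly built in.

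Chemokine, cytokine and NF-kB target genes had 10 of 20 lower and 3 higher (median -0.19), against 24.1% and 29.7% of all genes. ICAM1, an adhesion molecule, read 3.10 and 3.51 CPM in ERPHF8, against 9.17 and 9.07 CPM in ERAA (-1.34 ± 0.09). The subunit genes went apart, with NFKB2 at 19.5 and 19.2 CPM in ERPHF8 and 33.6 and 35.1 CPM in ERAA (-0.81 ± 0.06) and NFKB1 at 28.7 and 28.0 CPM in ERPHF8 and 20.4 and 20 CPM in ERAA (0.48 ± 0.06). Granule genes had 9 of 14 lower and 4 higher (median -0.28). ELANE, neutrophil elastase, read 775 and 759 CPM in ERPHF8 and 1101 and 1189 CPM in ERAA (-0.58 ± 0.05), while SRGN, the granule proteoglycan, read 2236 and 2217 CPM in ERPHF8 and 1458 and 1617 CPM in ERAA (0.54 ± 0.06).

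Of 31 MLL-fusion targets and self-renewal genes, 14 were lower and 6 higher (median -0.15), against 24.1% and 29.7% of all genes. HOXA7 read 1.53 and 1.64 CPM in ERPHF8, against 3.83 and 3.90 CPM in ERAA (-1.07 ± 0.10). LMO2, a stem cell factor, was at -0.40 ± 0.04, BMI1 at -0.23 and HOXA9 at -0.14, the last with reads shared with HOXA10. DOT1L, the H3K79 methyltransferase recruited by MLL fusions, read 150 and 153 CPM in ERPHF8 and 120 and 113 CPM in ERAA (0.38 ± 0.04), with overlapping neighbours, and CDK6 and MYB were higher by 0.54 and 0.15.

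Chromatin writers, Polycomb and deacetylase genes had 19 of 36 higher and 6 lower (median 0.21), against 29.7% and 24.1% of all genes. EZH2, the H3K27 methyltransferase, read 133 and 138 CPM in ERPHF8 and 84.7 and 80.0 CPM in ERAA (0.72 ± 0.05). CBX7, a reader of that mark, read 14.2 and 14.3 CPM in ERPHF8 and 25.4 and 25.3 CPM in ERAA (-0.81 ± 0.07). Of 21 histone demethylases 6 were higher (28.6%) and 3 lower (14.3%, median 0.13), a share higher close to that of all genes. KDM7A, of the same family as PHF8, read 7.01 and 7.28 CPM in ERPHF8 and 13.2 and 10.7 CPM in ERAA (-0.70 ± 0.10), and PHF2, also of that family, was higher by 0.32.

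Further lists split or moved little. Oestrogen receptor targets had 5 of 18 higher and 9 lower (median -0.20), against 29.7% and 24.1% of all genes. Among them PGR, the progesterone receptor, read 7.85 and 9.59 CPM in ERPHF8 and 4.06 and 3.83 CPM in ERAA (1.05 ± 0.11), and STC2 28.7 and 28.6 CPM in ERPHF8 and 48.4 and 46.3 CPM in ERAA (-0.72 ± 0.06). NRF2 and xenobiotic genes had 12 of 23 lower and 2 higher (median -0.24). AKR1C1 and AKR1C2, near-identical aldo-keto reductases that overlap, led at -1.40 ± 0.07 and -1.34 ± 0.07 and are uncertain.

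Hypoxia and glycolysis genes had 9 of 25 each way (median -0.07), where 29.7% of all genes were called higher and 24.1% lower. VEGFA, the angiogenic factor, read 113 and 101 CPM in ERPHF8 and 215 and 198 CPM in ERAA (-0.95 ± 0.07). LDHA, lactate dehydrogenase, was higher by 0.62 ± 0.04. Of 31 p53 target and apoptosis genes 6 were higher (19.4%) and 7 lower (22.6%, median -0.04), neither share above that of all genes. MDM2 was at 0.44 ± 0.06, overlapping another gene, and ZMAT3 at -0.67 ± 0.06. Lysosome genes had 13 of 25 lower and 4 higher (median -0.17), with TFEB, their transcription factor, at -0.67 ± 0.05. Adhesion and matrix genes had 9 of 20 lower and 2 higher (median -0.08). Of these, the hyaluronan receptor CD44 was at -0.47 ± 0.04.

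**Figure D5:**
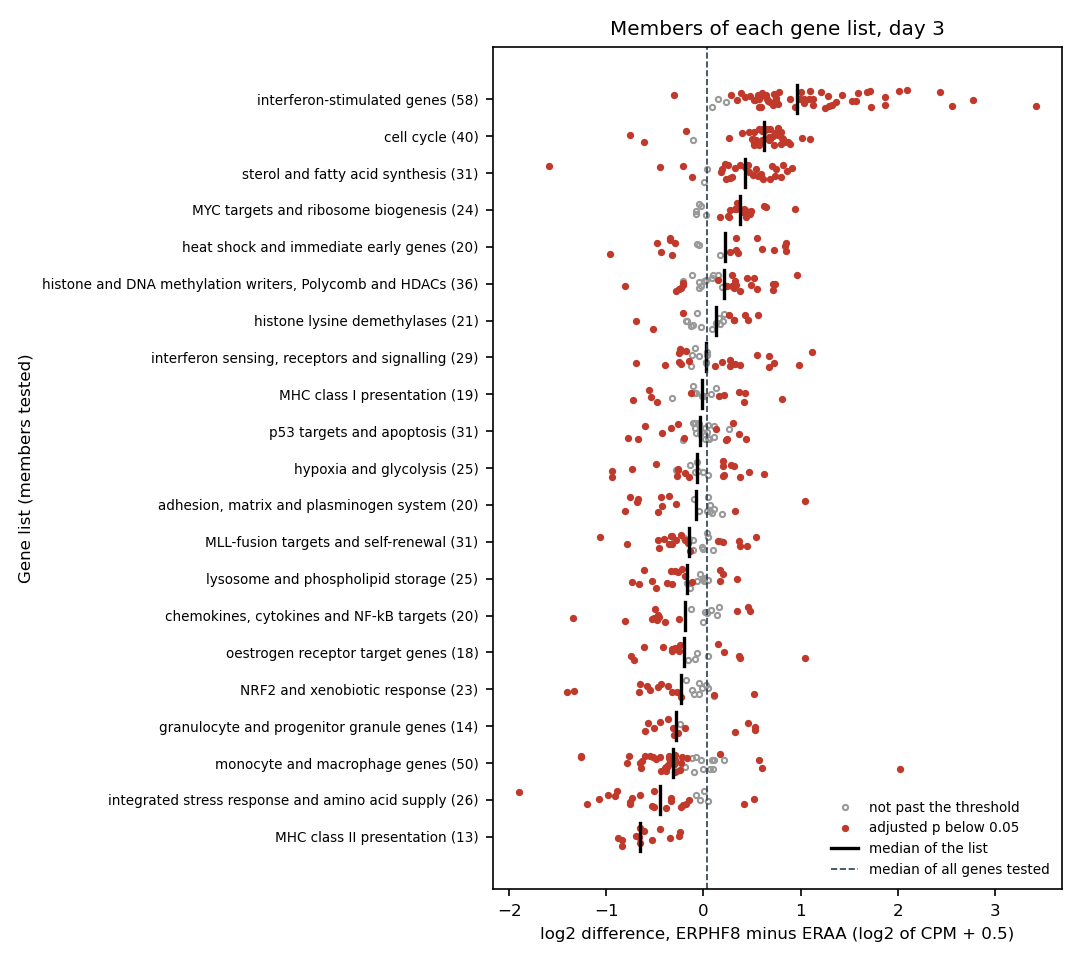
Difference in log2(CPM + 0.5), ERPHF8 minus ERAA, of each tested member of the gene lists with at least 10 tested; filled points passed an adjusted p below 0.05, black bars are list medians and the dashed line is the median of all genes tested (0.04). Medians run from 0.97 (interferon-stimulated genes) to -0.66 (MHC class II presentation), and most lists hold members on both sides.

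The largest falls included genes of several other kinds. Besides ASS1, CADM1, a cell adhesion molecule, read 1.28 and 1.10 CPM in ERPHF8 and 5.95 and 5.17 CPM in ERAA (-1.84 ± 0.14). COL6A1, a collagen VI chain, read 10.1 and 10.6 CPM in ERPHF8 and 34.0 and 31.9 CPM in ERAA (-1.62 ± 0.08). MAF, a macrophage transcription factor, read 9.23 and 8.90 CPM in ERPHF8 and 26.8 and 26.3 CPM in ERAA (-1.50 ± 0.06). ALS2CL, CDC42EP1 and ANXA3 fell by 1.55, 1.54 and 1.47 on the log2 scale. KCNK15, RPS6KA2, NDUFA4L2 and SLC6A9 were among the 12 as well, and each shares reads with an overlapping gene. In CPM the largest falls were those of abundant genes. The elongation factor EEF2 read 3697 and 3676 CPM in ERPHF8 and 5063 and 5307 CPM in ERAA (-0.49 ± 0.05), and the ferritin light chain FTL 2535 and 2523 CPM in ERPHF8 and 3427 and 3985 CPM in ERAA (-0.55 ± 0.07). EEF1A1, PABPC1, ACTG1 and ITGB2 made up the rest. The genes at least 2-fold higher had medians of 46.6% for GC content and 42.6 kb for span, and those at least 2-fold lower 59.9% and 14.8 kb.

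Markers of other cell types were low in both lines. Summed over 6 T cell markers they came to 1.35 to 1.5 CPM in ERPHF8 and 1.41 to 1.62 CPM in ERAA, and over 6 B cell markers to 12.4 to 13 CPM in ERPHF8 and 13.5 to 13.7 CPM in ERAA. Over 6 NK markers the sums were 20.9 to 22.7 CPM in ERPHF8 and 21.0 to 21.2 CPM in ERAA, and over 9 erythroid and megakaryocyte markers 2.11 to 2.29 CPM in ERPHF8 and 4.29 to 4.92 CPM in ERAA. Epithelial (6 genes) and fibroblast and endothelial markers (8 genes) summed to at most 0.785 and 8.07 CPM in ERPHF8, and 2.17 and 9.85 CPM in ERAA. HBA1, HBA2, PF4 and KRT19 were at 0 in all 6 libraries. Of the marker genes high enough to test, PRF1 (1.35 ± 0.14) and NKG7 (0.44 ± 0.08) were higher, and NCAM1 (-0.67 ± 0.11), ITGA2B (-1.07 ± 0.14) and COL1A1 (-0.49 ± 0.09) lower. Their part in the results above was not tested.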

How the data were processed

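Poly(A) RNA was sequenced from THP-1 lines kept in DMEM with serum, per the labels' protocols, with RNeasy extraction and NEBNext Ultra II libraries on a NextSeq instrument. For each library the authors deposited RPKM values of 19784 genes with hg38 coordinates. The tools named are STAR 2.7.0c, SAMtools 1.9 and DESeq2, and the build hg38, per the submitters' processing notes. How reads were counted, on which strand and over which annotation is not given in the sources used. The deposited RPKM times the gene's full span, introns included, was a whole multiple of 1 step in each library (within 0.001 reads), which gave the totals, 40.6 to 41.3 M reads in the ER lines and 18.2 to 51.5 M in the separate experiment. Reads over genes came to 103.0 to 104.6% of these totals in the ER lines, so some reads count in more than 1 gene (6569 genes overlap another). The strand counted was not tested, and reads called shared above are inferred from overlapping spans. There are 0 mitochondrial genes, and 21 names stand on 42 lines.

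RPKM was multiplied by span in kilobases to give CPM. limma 3.58.1 (R 4.3.3, data.table version 1.17.8) then took log2(CPM + 0.5), with a prior variance that followed intensity, over the 6 libraries of the ER lines, with group alone in the model. Genes needed at least 1 CPM in at least 2 libraries (13831 genes; in the separate experiment, fitted alone, at least 4 of 12, 13683 genes). Such fold changes understate the change of low genes. A count test had been planned as a further alternative and was not run, since the deposited unit is RPKM, although whole reads were recovered from it and used for voom. The script was tested on simulated data with known changes. Noise beyond sampling was equal in every simulated gene and line, so that test does not measure false calls in the real libraries. Samples were grouped by title and genotype label, with 0 left unassigned. The members and gene lists were chosen with earlier results of these data known. Named genes followed a rule: PHF8 and ESR1, the 12 largest rises and falls among called genes whose lines do not overlap and whose higher line averages at least 2 CPM, the 6 largest CPM differences each way, and up to 5 members of each list by smallest p (8 for interferon-stimulated genes). A few genes the rule selects are not reported here. Other genes given with values were chosen after these were seen. Floors take a count of 0 as allowing up to 3 reads. Replicate numbers did not pair libraries (correlation of same-numbered deviations -0.39 between ERPHF8 and ERAA over 11694 genes). All pairs of replicates differed by more than sampling noise. Alternatives covered the pseudocount, low-value filter, scaling, prior variance, voom, replicate block, libraries left out and overlapping genes. Promoters came from RefSeq (GRCh38.p14).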

Additional observations from a re-analysis of the deposited data

How the results depend on the processing

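After GC content and span were taken out, 7385 genes were called (3771 higher, 3614 lower, with 66 and 78 of at least 2-fold). The numbers of at least 2-fold higher genes were 134 with a pseudocount of 0.1 CPM and 143 with voom, and those at least 2-fold lower were 72 with a pseudocount of 1 CPM and 191 with voom. Without genes that overlap another gene there were 4645 called, 2584 higher and 2061 lower, of which 683 were called the same way in PHF8 against wt of the separate experiment, and all 7 MHC class II genes left were lower; fewer genes were tested there. Against 1035 genes called the same way in both experiments, the library pair as a term in the separate experiment gave 1949; the cause was not tested. Leaving out 1 library at a time gave 4863 to 8756 called genes (the lowest without ERPHF8 2), 2582 to 5227 higher and 2281 to 3711 lower, and 57 to 137 of at least 2-fold higher (the highest without ERAA 1) and 111 to 122 lower. It gave 356 to 468 list members and 731 to 1201 genes shared with the separate experiment. By list it gave 53 to 55 interferon-stimulated genes higher, 11 to 13 MHC class II genes lower, 31 to 36 monocyte genes lower, 36 to 36 cell cycle genes higher, 17 to 20 MYC targets higher, 17 to 21 amino acid supply genes lower and 21 to 25 sterol genes higher. PHF8, not called in the main comparison, was called with GC content and span taken out (-0.2239), TMM scaling (-0.2051), median-ratio scaling (-0.1986) and the crossed block (-0.1703), and without 1 library it ranged from -0.2744 to -0.0662. ESR1 was not called with a constant prior variance (-0.1795) or in the 4 libraries alone (-0.1795), and without 1 library it ranged from -0.2573 to -0.1016. CD79A, never called, turned to 0.0027 after the GC content and span correction. Of 134 named genes called, 132 kept the call in every setting, ACTG1 lost it in 8 and ESR1 in 6. A replicate block called 6900 genes, 3785 of them higher and 3115 lower, which changed no list count above by more than 1.5 times. A crossed block, with the numbers of ERAA exchanged, was added after the correlation was seen and gave 7784. The edgeR and DESeq2 alternatives were not run. The 2 libraries a line limit the precision.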
